A study of Homo sapiens with 6 samples.

Results

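The 68 genes described here encode cytosolic and mitochondrial molecular chaperones and their direct partners: the HSP90 and HSP70 proteins, the small heat shock proteins, the HSPD1-HSPE1 and CCT chaperonins, the J-domain proteins of classes A, B and C, and the regulators HSF1 and BAG3. They were chosen by gene symbol among the 58735 rows of the count table. The symbols of the 6 chaperones of the endoplasmic reticulum HSPA5, HSP90B1, DNAJB9, DNAJB11, DNAJC3 and DNAJC10 were left out, as were 63 rows whose symbol ends in P plus digits, the usual form of a pseudogene name. Of the 89 rows that remained, 68 held at least 10 counts in at least 3 of the 6 libraries, and all 68 were tested. TCP1 ends in P and a digit but is named by the selection itself and was kept. The symbol HSPA14 stands on 2 rows, so the 68 rows carry 67 symbols, and HSP90AA2P and HSP90AB3P are annotated as processed pseudogenes. The 21 rows below the minimum held at most 40 counts over all libraries, in HSPA12B, and 9 of them held none. The label fits the set only in part, since HSPA13 is known as a protein of the endoplasmic reticulum and DNAJB12 and DNAJB14 as proteins anchored in its membrane.

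The libraries come from ACHN cells, an established human renal cancer line, cultured in minimum essential medium with serum. Cells received an siRNA against OTUD1, which encodes a deubiquitinase of the OTU family, or a control siRNA. There were 3 libraries in each group, all from transfected cells of this 1 line, and the labels name 1 siRNA against OTUD1. The time after transfection and any separate cultures are not given in the labels, so each p-value speaks only of how these libraries scatter, and that scatter may be technical.

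Chaperones bind unfolded proteins and help them fold, keep them from aggregating or pass them on for degradation. HSP70 proteins work with J-domain proteins, which bring substrates and start ATP hydrolysis, and with exchange factors such as BAG3 and HSPH1, which release the nucleotide. HSP90 acts later on kinases and receptors, CCT folds actin and tubulin, and HSPD1 with HSPE1 folds proteins inside mitochondria. HSF1 is the transcription factor that raises many of these genes when misfolded protein accumulates, through heat shock elements made of alternating GAA and TTC blocks.

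After OTUD1 siRNA, most of the changed chaperone mRNAs were lower. Of the 68 genes, 40 fell and 10 rose, while 18 did not pass the test (edgeR quasi-likelihood test, adjusted p under 0.05 over all 15244 genes tested). Among all genes tested, 60.4% were called, 31.1% as lower and 29.3% as higher, against 58.8% of the chaperone genes called lower and 14.7% called higher. The median log2 fold change, OTUD1 siRNA over control siRNA, was -0.20 over the 68 chaperone genes and 0.0056 over all genes tested. The CPM values of the groups did not overlap for 52 of the 68 genes, and for 64.5% of all genes tested. Levels are given as CPM, which are counts scaled to the TMM-adjusted library size, with replicates 1 to 3 in order, and errors of means as SD of 3 libraries. In this bulk RNA, a smaller number of expressing cells and less RNA per cell cannot be told apart.

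The largest decreases were in HSPA1B, HSPH1 and HSPA1A, each about -1 on the log2 scale, and the largest increase was in DNAJC30, at 1.16. These 4 were the called genes past 1 on the log2 scale in either direction, 3 lower and 1 higher, where 9.07% of all genes tested were. HSPA14 stands on both sides, with one row lower and the other higher. The decreases held for 27 genes and the increases for 8 under each of 15 other ways of processing in which the gene was tested. With library totals as the scale, 29 chaperone genes were lower and 18 higher, and after quantile normalization with limma 30 were lower and 18 higher. Of all genes, 28.5% were lower and 31.1% higher after quantile normalization. Library totals moved the median of all genes to 0.13, so that 22.7% of all genes were then lower and 40.6% higher. Such a change of scale moves every gene by nearly the same amount. The chaperone median therefore had to stay 0.20 below that of all genes, as with TMM. After quantile normalization, which can change this distance, it lay 0.14 below.

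**Figure D1:**
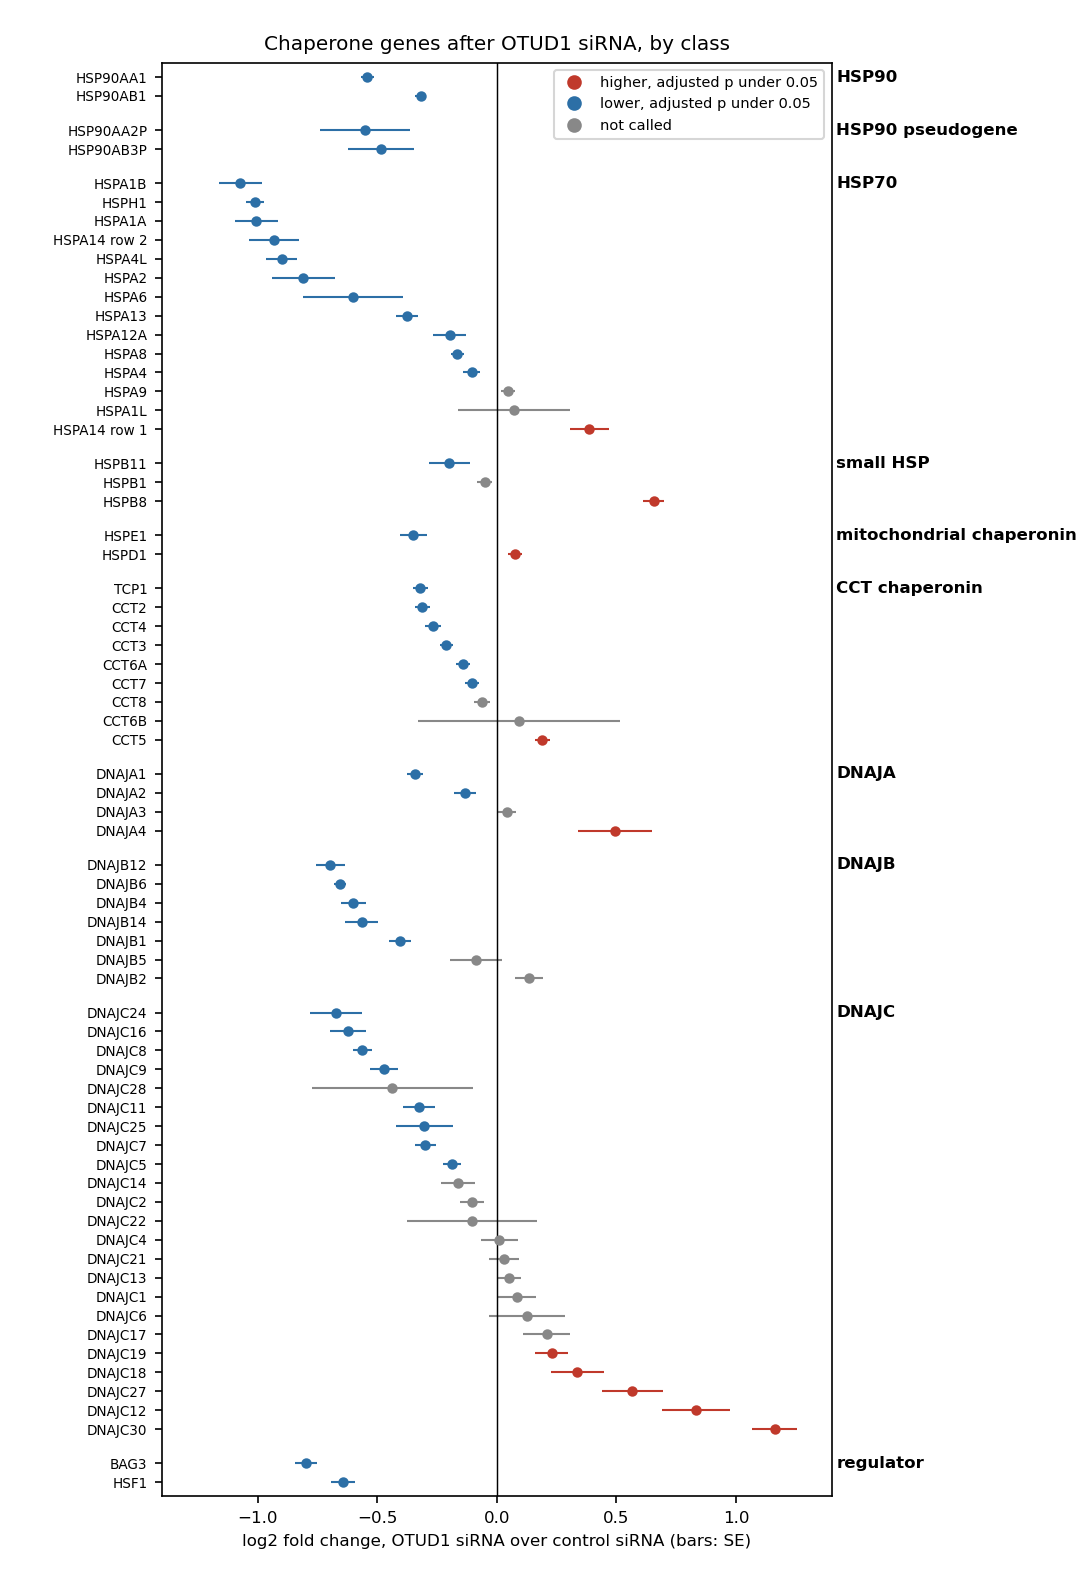
Log2 fold change of each of the 68 chaperone rows, OTUD1 siRNA over control siRNA, with its SE as a bar, grouped by class, where red points are called higher, blue points called lower and grey points not called. Blue points are 11 of 14 in the HSP70 class, 8 of 23 in DNAJC, 6 of 9 in CCT and 5 of 7 in DNAJB. DNAJC30 lies farthest to the right at 1.16.

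HSF1, BAG3 and the stress-induced genes HSPA1A, HSPA1B, HSPH1, DNAJB1 and HSPA6 were lower. Other genes known to respond to heat shock did not follow: HSPB8, HSPD1 and DNAJA4 were called higher and HSPB1 was not called, and outside the set SERPINH1 (0.39) and CRYAB (0.84), the second named after its value was seen, were called higher. HSF1 mRNA was at 61.5, 57 and 58.7 CPM in the OTUD1 siRNA libraries and 99.3, 87.6 and 90.3 CPM in the control libraries. All 3 OTUD1 siRNA libraries lay below all 3 control libraries, and the log2 fold change was -0.64 (edgeR adjusted p = 6.86e-12). BAG3, the exchange factor that links HSP70 to small heat shock proteins and to autophagy, was at 64.6, 65.1 and 66.7 CPM in the OTUD1 siRNA libraries and 115, 118 and 108 CPM in the control libraries. It fell 1.74-fold (log2 fold change -0.80), again with no overlap between the groups. HSF1 lies on hg38 chromosome 8 from 144291591 to 144314722, and BAG3 on chromosome 10 from 119651370 to 119677819.

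HSPA1A and HSPA1B, the pair of intronless genes that encode the inducible HSP70 protein, stand close together on chromosome 6, at 31815464 to 31817946 and 31827735 to 31830255. HSPA1A was at 10.6, 11.2 and 11.6 CPM in the OTUD1 siRNA libraries and 21, 23.7 and 22.4 CPM in the control libraries. HSPA1B was at 14.2, 12.7 and 13.2 CPM in the OTUD1 siRNA libraries and 31.9, 25.1 and 27.6 CPM in the control libraries. In both genes every OTUD1 siRNA library lay well below every control library, with log2 fold changes of -1.01 and -1.07 (edgeR adjusted p = 7.70e-11 and 2.17e-11). The near-identical sequence of the pair means that reads can be split between them in either way, so their single values are uncertain, and AL671762.1 on the same strand overlaps 36.5% of HSPA1B. Their summed count relative to that of HSPA8, the constitutive HSP70, does not depend on this split or on the scale. It was 0.0182, 0.0177 and 0.0188 in the OTUD1 siRNA libraries and 0.0361, 0.0317 and 0.0329 in the control libraries. The groups did not overlap, and the two-sided exact permutation p was 0.1, the smallest that 3 against 3 libraries allow.

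HSPH1, the HSP110-type exchange factor of HSP70, was at 98.2, 94.4 and 90.7 CPM in the OTUD1 siRNA libraries and 189, 194 and 188 CPM in the control libraries. It fell 2.02-fold, with no overlap between the groups and a log2 fold change of -1.01 (edgeR adjusted p = 6.01e-19). DNAJB1, the main stress-induced J-domain protein, was at 70.2, 74.9 and 75.8 CPM in the OTUD1 siRNA libraries and 98.5, 93.3 and 101 CPM in the control libraries. It fell 1.32-fold with no overlap. HSPA6, which is silent in most unstressed cells, had 46, 60 and 35 counts in the OTUD1 siRNA libraries and 63, 58 and 61 counts in the control libraries. Its CPM values fell 1.52-fold (log2 fold change -0.60, edgeR adjusted p = 0.015), and the call was lost without OTUD1 siRNA replicate 1 (-0.52), without OTUD1 siRNA replicate 3 (-0.49) or without control siRNA replicate 1 (-0.53), and with library totals (-0.47).

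**Figure D2:**
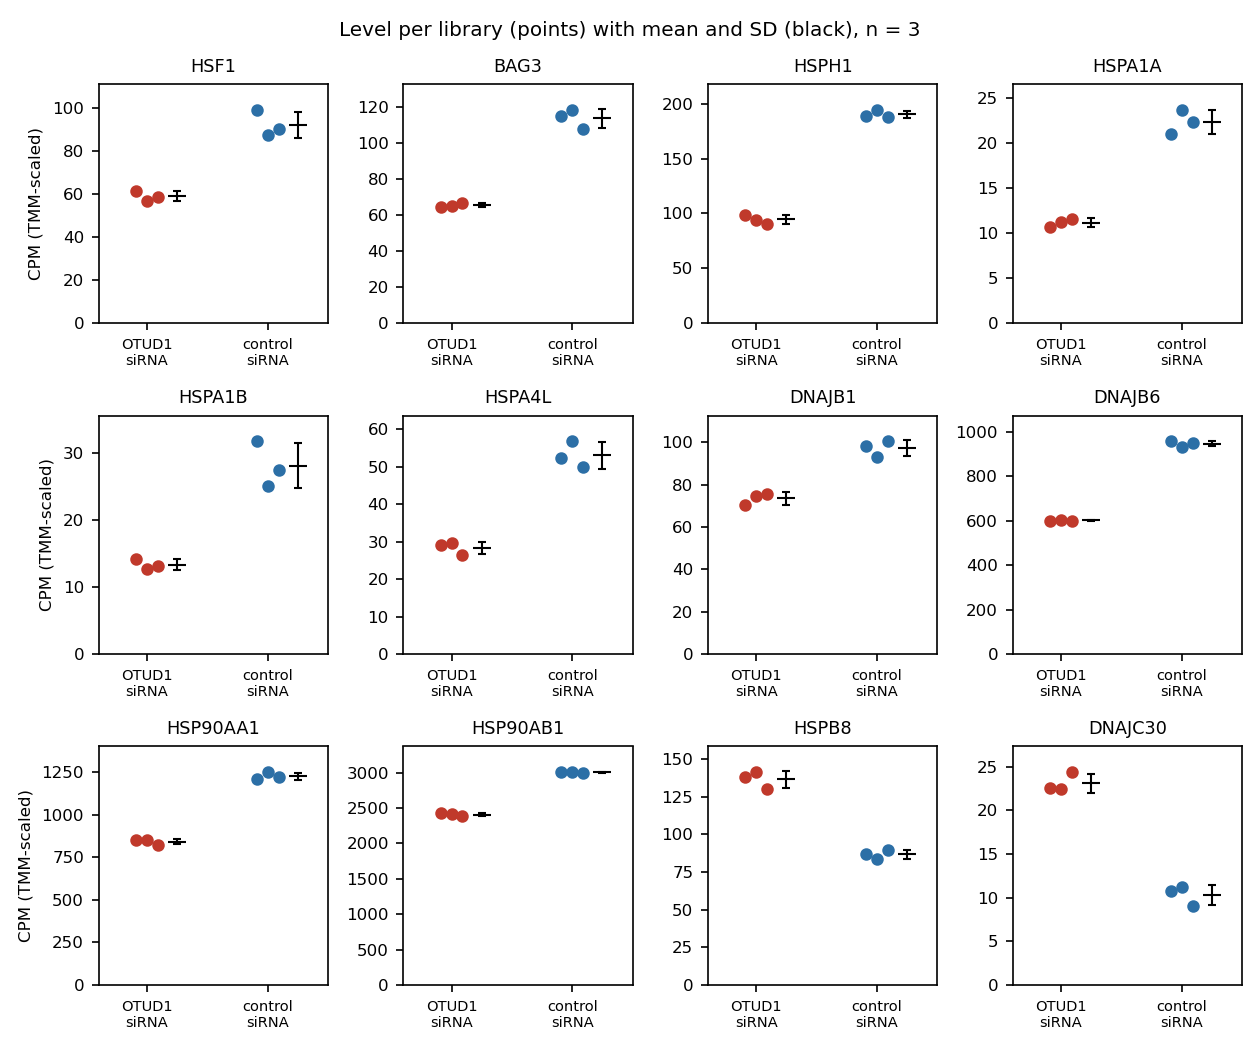
TMM-scaled CPM in each library (points), with mean and SD of 3 libraries in black, OTUD1 siRNA in red and control siRNA in blue, for 12 chaperone genes, each on an axis that starts at 0. In 10 genes the OTUD1 siRNA libraries all lie below the control libraries, and in HSPB8 and DNAJC30 all lie above.

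The promoter sequences show where the heat shock element letters stand in these genes. Windows from 250 bases before to 50 bases after the start (RefSeq, GRCh38.p14) were searched for GAANNTTC and TTCNNGAA, the 2-unit forms, each of which reads the same on both strands, and for the 3-unit forms, GAANNTTC followed by NNGAA and TTCNNGAA followed by NNTTC, which contain both 2-unit forms and are each other's reverse complement. A window was found for 58 of the 67 symbols; HSF1, HSPA14, HSPB11, CCT6A, DNAJC1, DNAJC22, DNAJC24, HSP90AA2P and HSP90AB3P had none. A 3-unit form stood in 7 of the 58 genes (12.1%) and in 0.608% of the 27305 genes with a window. A 2-unit form stood in 22 of the 58 (37.9%), against 16.2% of all genes with a window. The 9 stretches below are those of the 7 genes with a 3-unit form, shown 5′ to 3′ on the gene's own strand with the 3-unit letters in capitals, so that the spacing of the GAA and TTC blocks can be read beside each gene's change.
DNAJA1, chr9:33025262-33025302, plus strand: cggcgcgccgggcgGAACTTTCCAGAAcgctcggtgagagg
DNAJB6, chr7:157336859-157336899, plus strand: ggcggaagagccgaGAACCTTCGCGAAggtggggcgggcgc
HSP90AA1, chr14:102087106-102087146, minus strand: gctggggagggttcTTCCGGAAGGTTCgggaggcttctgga
HSP90AB1, chr6:44247764-44247804, plus strand: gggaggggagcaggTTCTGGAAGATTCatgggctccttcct
HSP90AB1, chr6:44247817-44247857, plus strand: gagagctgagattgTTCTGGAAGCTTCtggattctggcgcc
HSPA6, chr1:161524452-161524492, plus strand: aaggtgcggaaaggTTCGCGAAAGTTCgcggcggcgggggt
HSPA8, chr11:123062340-123062380, minus strand: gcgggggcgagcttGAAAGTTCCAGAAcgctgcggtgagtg
HSPA8, chr11:123062165-123062205, minus strand: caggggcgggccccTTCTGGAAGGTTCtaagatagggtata
HSPD1, chr2:197500054-197500090, minus strand: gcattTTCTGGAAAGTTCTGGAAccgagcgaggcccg
Of the 7 genes, HSP90AA1, HSP90AB1, HSPA8, HSPA6, DNAJA1 and DNAJB6 fell and HSPD1 rose, where 33 of all 58 genes with a window fell and 9 rose. These are calls with TMM scaling. HSPA8 was called higher after quantile normalization (0.077), and HSPA6 and HSPD1 lost their calls when some single libraries were left out. In HSPD1 the capitals are overlapping 3-unit forms, 18 bases in all, which begin 245 bases before one of its annotated starts. This stretch also lies inside the annotated span of HSPE1, from 197499994 to 197503457. HSPE1, which fell (-0.35), holds no 3-unit form in its own window. HSP90AB1 and HSPA8 carry 2 separate 3-unit forms each. The element of DNAJA1 begins 3 bases after the start, that of HSPA6 74 bases before it and that of DNAJB6 131 bases before it. The median log2 fold change was -0.34 over these 7 genes and -0.16 over the 51 others, a difference that was not tested. HSPH1, BAG3 and DNAJC30, among the largest changes, hold neither form in the window.

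The whole windows of HSPA1A and HSPA1B are shown because the pair gave some of the largest decreases and because they show how alike the genes are. The capitals mark the 2-unit form GAATATTC, which begins 106 bases before the start of HSPA1A and 105 bases before that of HSPA1B.
HSPA1A, chr6:31815293-31815592, plus strand: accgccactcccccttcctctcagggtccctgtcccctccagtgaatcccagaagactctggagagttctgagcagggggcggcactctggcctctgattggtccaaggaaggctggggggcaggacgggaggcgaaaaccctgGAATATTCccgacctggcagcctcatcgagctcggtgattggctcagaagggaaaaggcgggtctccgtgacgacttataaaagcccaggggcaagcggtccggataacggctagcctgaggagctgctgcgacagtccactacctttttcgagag
HSPA1B, chr6:31827488-31827787, plus strand: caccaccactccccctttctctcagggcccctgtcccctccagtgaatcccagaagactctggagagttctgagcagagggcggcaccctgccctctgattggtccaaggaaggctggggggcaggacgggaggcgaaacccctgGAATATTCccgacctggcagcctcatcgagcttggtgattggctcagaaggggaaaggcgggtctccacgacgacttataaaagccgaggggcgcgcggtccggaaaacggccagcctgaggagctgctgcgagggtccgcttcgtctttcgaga
Aligned end to end, 277 bases of the windows are identical, 22 differ and 2 are in gaps. Each holds the 2-unit form once and no 3-unit form.

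Both HSP90 genes fell, the stress-responsive HSP90AA1 more than the constitutive HSP90AB1. HSP90AA1 was at 852, 852 and 824 CPM in the OTUD1 siRNA libraries and 1211, 1251 and 1219 CPM in the control libraries. HSP90AB1, the most abundant chaperone mRNA per length in both groups, was at 2428, 2411 and 2381 CPM in the OTUD1 siRNA libraries and 3002, 3008 and 2995 CPM in the control libraries. Neither gene had overlapping groups, and their log2 fold changes were -0.54 and -0.32 (edgeR adjusted p = 1.49e-16 and 6.36e-13). The count of HSP90AA1 relative to HSP90AB1 in the same library was 0.351, 0.353 and 0.346 after OTUD1 siRNA, against 0.403, 0.416 and 0.407 in the control libraries. This ratio needs no scaling between libraries, and its groups did not overlap (two-sided exact permutation p = 0.1, the smallest possible). The processed pseudogenes HSP90AA2P and HSP90AB3P, whose reads may come from the parent genes, had log2 fold changes of -0.55 and -0.48. Both were called lower, but HSP90AA2P had overlapping groups and lost its call without OTUD1 siRNA replicate 1 (-0.45), without control siRNA replicate 1 (-0.45) or without control siRNA replicate 3 (-0.40), and with library totals (-0.42).

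**Figure D3:**
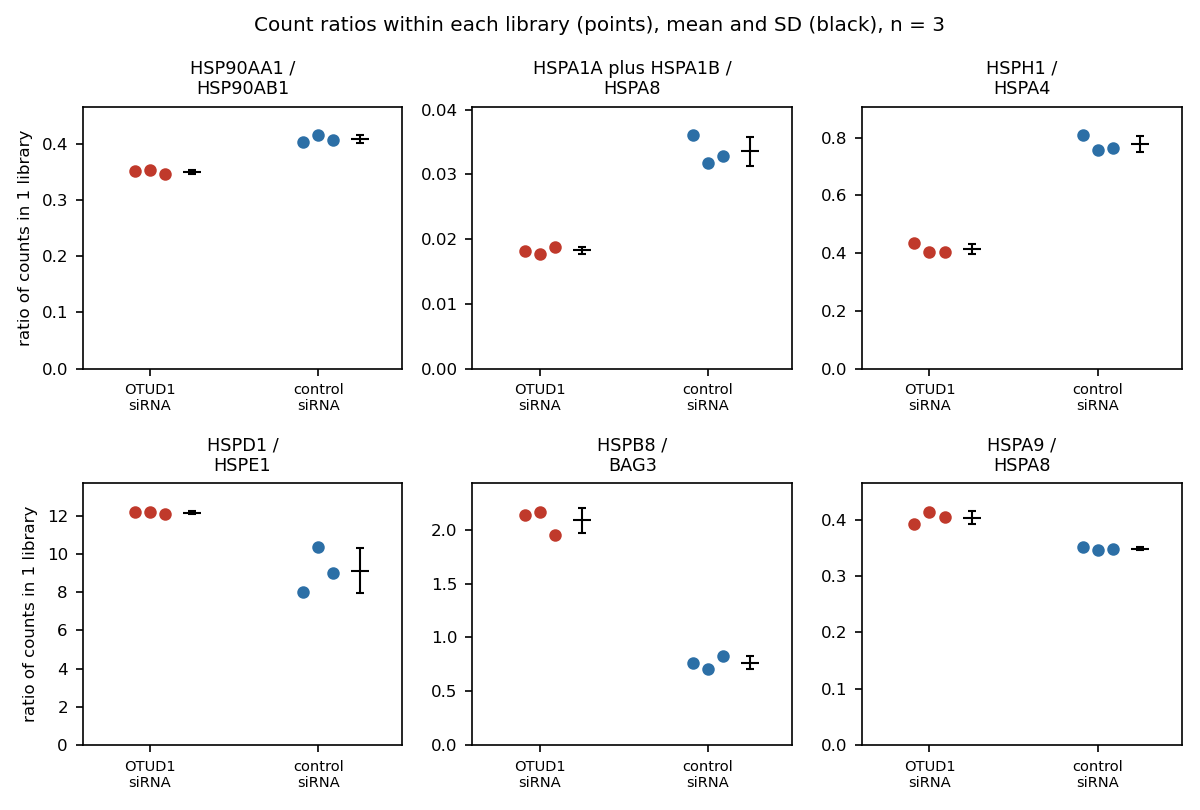
Ratios of raw counts within each library (points), with mean and SD of 3 libraries in black, OTUD1 siRNA in red and control siRNA in blue. In the ratios of HSP90AA1 to HSP90AB1, of HSPA1A plus HSPA1B to HSPA8 and of HSPH1 to HSPA4 the OTUD1 siRNA libraries lie below the control libraries, and in the other 3 ratios above.

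The remaining HSP70 and HSP110 genes moved by very different amounts. Over the whole class, 11 of 14 rows (78.6%) fell and 1 rose, with a median of -0.49, where 31.1% of all genes tested were lower. HSPA8, the constitutive cytosolic HSP70 and the most abundant gene of the class per length, was at 1366, 1347 and 1318 CPM in the OTUD1 siRNA libraries and 1464, 1539 and 1518 CPM in the control libraries. Its log2 fold change was -0.17 with TMM scaling (edgeR adjusted p = 3.35e-06), but -0.036 and not called with library totals and 0.077, called as higher, after quantile normalization, so its direction depends on the scale. HSPA4, an HSP110-type exchange factor, was at 226, 234 and 226 CPM in the OTUD1 siRNA libraries and 234, 256 and 246 CPM in the control libraries. It was called lower at -0.10 (adjusted p = 0.0134), while it lost the call without OTUD1 siRNA replicate 1 (-0.097) without control siRNA replicate 2 (-0.069) or with a minimum mean of 5 CPM (-0.057) and turned positive with library totals (0.025) and quantile normalization (0.052).

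HSPA4L, the close relative of HSPA4, moved much further. It was at 29, 29.6 and 26.5 CPM in the OTUD1 siRNA libraries and 52.3, 56.8 and 49.9 CPM in the control libraries. The groups were far apart, and the gene fell 1.87-fold (log2 fold change -0.90, edgeR adjusted p = 5.71e-13). HSPA2, best known from male germ cells, was at 5.2, 6.31 and 6.78 CPM in the OTUD1 siRNA libraries and 11.8, 8.87 and 11.3 CPM in the control libraries and fell 1.75-fold. The count of HSPH1 relative to HSPA4 averaged 0.413 ± 0.0181 after OTUD1 siRNA and 0.777 ± 0.028 in the control libraries (SD, n = 3 each), with no overlap between the groups.

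HSPA14 encodes an HSP70 protein that works at the ribosome with DNAJC2. The row with more counts was at 23.2, 24 and 24.2 CPM in the OTUD1 siRNA libraries and 19.1, 16.2 and 19.3 CPM in the control libraries. The other row was at 8.48, 8.34 and 7.06 CPM in the OTUD1 siRNA libraries and 15.2, 16.1 and 14.4 CPM in the control libraries. The first rose 1.31-fold and the second fell 1.91-fold, both with no overlap. GENCODE 29 lists 2 genes of this symbol that overlap on the same strand of chromosome 10, from 14838164 to 14871741 and from 14838160 to 14847018, and the table does not say which row is which, so reads may be divided between them in either way. DNAJC2 was not called (log2 fold change -0.10). HSPA13 of the endoplasmic reticulum and HSPA12A, a distant relative, were called lower at -0.38 and -0.20, and HSPA12A was not called with library totals (-0.068) or quantile normalization (-0.15). HSPA1L did not pass the test.

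Among the small heat shock proteins, HSPB8 rose while HSPB1 did not pass the test. HSPB8, the partner of BAG3 in clearing misfolded proteins, was at 138, 141 and 130.3 CPM in the OTUD1 siRNA libraries and 87.2, 83.5 and 89.5 CPM in the control libraries. Every OTUD1 siRNA library lay above every control library, a log2 fold change of 0.66 (edgeR adjusted p = 9.84e-14). The count of HSPB8 relative to BAG3 was 2.14, 2.17 and 1.95 after OTUD1 siRNA, against 0.759, 0.705 and 0.828 in the control libraries (two-sided exact permutation p = 0.1, the smallest possible). With HSPB8 higher and BAG3 lower in every OTUD1 siRNA library, the ratio had to separate the groups. Its test adds nothing to the single-gene results.

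HSPB1, also called HSP27, was the second most abundant chaperone mRNA per length in both groups. It was at 598, 579.8 and 628 CPM in the OTUD1 siRNA libraries and 634, 633 and 603 CPM in the control libraries. These groups overlapped (log2 fold change -0.051, edgeR adjusted p = 0.167). The gene was called as lower without OTUD1 siRNA replicate 3 (-0.081) but as higher with library totals (0.078) and quantile normalization (0.17). HSPB11, known as the intraflagellar transport protein IFT25, was called lower at -0.20 with overlapping groups, and the call was lost in 10 of 15 alternatives, among them those without OTUD1 siRNA replicate 1 (-0.18), OTUD1 siRNA replicate 2 (-0.17), control siRNA replicate 1 (-0.17) and control siRNA replicate 2 (-0.15).

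Among the mitochondrial members some rose and some fell. HSPD1, the barrel of the mitochondrial chaperonin, was at 834, 858 and 811 CPM in the OTUD1 siRNA libraries and 769, 809 and 797 CPM in the control libraries. The groups did not overlap and HSPD1 was called higher at 0.075 (edgeR adjusted p = 0.026), a small change that lost its call without OTUD1 siRNA replicate 1 (0.075), OTUD1 siRNA replicate 2 (0.054), control siRNA replicate 1 (0.051) or control siRNA replicate 3 (0.082), and with no filter on low counts (0.066). HSPE1, the lid of the same chaperonin, was at 68.2, 70.4 and 67.2 CPM in the OTUD1 siRNA libraries and 95.9, 78 and 88.6 CPM in the control libraries. It fell 1.27-fold (log2 fold change -0.35, edgeR adjusted p = 3.70e-06). The pair lies on opposite strands of chromosome 2. The annotated span of HSPE1, from 197499994 to 197503457, lies inside that of HSPD1, from 197486581 to 197516737. Exons of HSPD1 and of the read-through gene HSPE1-MOB4 overlap 49.8% of the main HSPE1 transcript, and although the library kit keeps strand, the strand setting of the counting is not given, so the HSPE1 count is uncertain. The count of HSPD1 relative to HSPE1 was 12.2, 12.2 and 12.1 after OTUD1 siRNA, against 8.02, 10.4 and 8.99 in the control libraries.

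HSPA9, the mitochondrial HSP70, was at 537, 558 and 532 CPM in the OTUD1 siRNA libraries and 514, 533 and 528 CPM in the control libraries. It did not pass the test (log2 fold change 0.048, edgeR adjusted p = 0.168) but was called higher with library totals (0.18), quantile normalization (0.27) and a minimum mean of 5 CPM (0.0953). Its J-domain partner DNAJA3 was likewise not called (0.041) and was called higher in these same alternatives. The count of HSPA9 relative to the cytosolic HSPA8 averaged 0.404 ± 0.0109 after OTUD1 siRNA and 0.348 ± 0.00261 in the control libraries (SD, n = 3 each), with no overlap.

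DNAJC30, a J-domain protein of the mitochondrial inner membrane encoded by a single exon, gave the largest increase. It was at 22.5, 22.4 and 24.4 CPM in the OTUD1 siRNA libraries and 10.8, 11.2 and 8.99 CPM in the control libraries. Every OTUD1 siRNA library lay far above the control libraries, a 2.24-fold increase with a log2 fold change of 1.16 (edgeR adjusted p = 1.12e-11). Exons of BUD23 on the opposite strand overlap 14.5% of its transcript. DNAJC19, a part of the motor that imports proteins into mitochondria, was at 30, 31.5 and 30.2 CPM in the OTUD1 siRNA libraries and 26.3, 27.6 and 24.3 CPM in the control libraries and rose 1.17-fold. Of the 8 mitochondrial members, counting DNAJC11 and DNAJC28 as well, 3 rose and 2 fell, with a median of 0.044, where 29.3% of all genes tested were higher and 31.1% lower. DNAJC11, of the complex that shapes the inner membrane, was the second that fell (-0.33), with 42.9% of its main transcript overlapped by THAP3 on the opposite strand, and DNAJC28 did not pass.

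The CCT chaperonin is a double ring of 8 kinds of subunit, and its mRNAs did not move together. Of 9 CCT genes, 6 (66.7%) fell, 1 (11.1%) rose and 2 did not pass the test under TMM scaling, where 31.1% of all genes tested were lower and 29.3% higher. TCP1 was at 381, 368 and 359 CPM in the OTUD1 siRNA libraries and 457, 463 and 464 CPM in the control libraries. CCT2 was at 327, 328 and 314 CPM in the OTUD1 siRNA libraries and 408, 399 and 396 CPM in the control libraries. CCT4 was at 351, 323 and 320.1 CPM in the OTUD1 siRNA libraries and 393, 400.2 and 404 CPM in the control libraries. In these 3 genes the groups were apart and the log2 fold changes were -0.32, -0.31 and -0.27. The call on CCT4 was lost after quantile normalization (-0.071). Opposite-strand genes overlap 15.9% of the main TCP1 transcript and 14.1% of that of CCT4. CCT3, CCT6A and CCT7 were called lower at -0.21, -0.14 and -0.10, but after quantile normalization CCT3 was at 0.027 and not called, and CCT6A (0.082) and CCT7 (0.12) were called higher. With library totals CCT6A (-0.012) and CCT7 (0.026) were not called, and CCT7 also lost its call with a minimum mean of 5 CPM (-0.0553).

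CCT5 rose under all 4 scales tried, and it was the one ring subunit gene called higher with TMM scaling. It was at 330.3, 321 and 317 CPM in the OTUD1 siRNA libraries and 285, 281 and 283 CPM in the control libraries. No OTUD1 siRNA library fell within the control range, and the log2 fold change was 0.19 (edgeR adjusted p = 6.25e-06). An opposite-strand gene, AC012640.4, overlaps 47.8% of its main transcript, which makes this count uncertain. CCT8 did not pass (-0.063) and was at 0.066, not called, with library totals and 0.085, called higher, after quantile normalization. CCT6B, a testis form, had 25, 9 and 17 counts in the OTUD1 siRNA libraries and 8, 24 and 9 counts in the control libraries. It did not pass the test, and the summed counts of 51 after OTUD1 siRNA and 41 in the control libraries gave a ratio of 1.06 per scaled library size, with an exact (Clopper-Pearson) 95% interval of 0.69 to 1.64 that covers counting error only.

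Within a library, the shares of the 8 ring subunits in their summed count per kb of the main transcript need no scaling between libraries. CCT5 made up 5.98% ± 0.0167 of the sum after OTUD1 siRNA and 4.65% ± 0.017 in the control libraries. TCP1 made up 10.1% ± 0.0901 after OTUD1 siRNA and 11.2% ± 0.197 in the control libraries. CCT2 made up 10.8% ± 0.168 after OTUD1 siRNA and 11.9% ± 0.134 in the control libraries (SD, n = 3 each). CCT7 made up 21.5% ± 0.22 after OTUD1 siRNA and 20.5% ± 0.518 in the control libraries, and CCT8 9.4% ± 0.348 after OTUD1 siRNA and 8.72% ± 0.165 in the control libraries. The groups did not overlap for these 5 subunits or for CCT4, which was lower, and they overlapped for CCT3 and CCT6A. Since the shares add up to a fixed sum, a share can rise without a rise in level. With TMM scaling CCT7 was called lower (-0.10) and CCT8 was not called (-0.063). These shares are of mRNA and say nothing of the assembled complex.

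**Figure D4:**
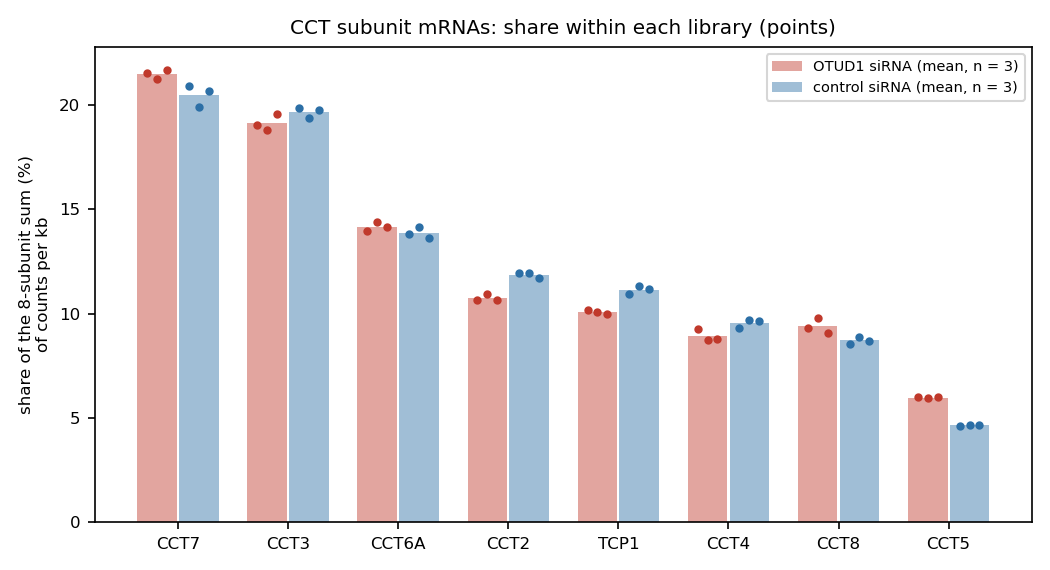
Share of each of the 8 ring subunit mRNAs in their summed counts per kb, in percent, with bars for the mean of 3 libraries and points for the libraries, OTUD1 siRNA in red and control siRNA in blue. The shares of CCT5, CCT7 and CCT8 are higher and those of TCP1, CCT2 and CCT4 lower in all 3 OTUD1 siRNA libraries than in every control library. A higher share is not a higher level, and CCT7 was called lower with TMM scaling.

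Among the J-domain proteins of class B, 5 of 7 genes (71.4%) fell and none rose, with a median of -0.57, where 31.1% of all genes tested were lower. In class A, 2 of 4 genes fell and 1 rose, with a median of -0.046. DNAJB6, which keeps polyglutamine and other proteins from aggregating, was at 598, 603 and 600.4 CPM in the OTUD1 siRNA libraries and 958, 933 and 948 CPM in the control libraries. The spread within each group was small beside the gap, and DNAJB6 fell 1.58-fold (log2 fold change -0.66, edgeR adjusted p = 2.16e-18). DNAJB12, anchored in the membrane of the endoplasmic reticulum and facing the cytosol, was at 32.1, 30.6 and 28.3 CPM in the OTUD1 siRNA libraries and 49.6, 48.6 and 49.7 CPM in the control libraries and fell 1.62-fold. DNAJB14, its relative in the same membrane, and DNAJB4 were called lower at -0.57 and -0.60. DNAJB2 and DNAJB5 did not pass.

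DNAJA1, the main class A partner of cytosolic HSP70, was at 178, 185 and 177 CPM in the OTUD1 siRNA libraries and 222, 230.2 and 232 CPM in the control libraries. It fell 1.27-fold with no overlap (log2 fold change -0.34). DNAJA2 was at 84.3, 86.2 and 77.4 CPM in the OTUD1 siRNA libraries and 91.1, 93.3 and 87.6 CPM in the control libraries. Its small decrease (-0.13, edgeR adjusted p = 0.0164) was lost without OTUD1 siRNA replicate 3 (-0.089), without control siRNA replicate 2 (-0.11), with a minimum mean of 5 CPM (-0.085), with library totals (-0.0037) and with quantile normalization (-0.032). DNAJA4 moved the other way, at 6.29, 4.96 and 6.11 CPM in the OTUD1 siRNA libraries and 3.82, 4.57 and 3.91 CPM in the control libraries, and rose 1.41-fold, a call lost after quantile normalization (0.34).

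Of the 23 genes of class C, which is held together only by its J domain, 8 (34.8%) fell, 5 (21.7%) rose and 10 did not pass, shares near the 31.1% and 29.3% of all genes tested. DNAJC12, a helper of the enzymes that hydroxylate aromatic amino acids, was at 7.89, 7.55 and 9.22 CPM in the OTUD1 siRNA libraries and 4.19, 5.29 and 4.26 CPM in the control libraries and rose 1.78-fold. DNAJC27, a Rab-like GTPase with a J domain, was at 10.7, 9.93 and 8.28 CPM in the OTUD1 siRNA libraries and 6.95, 6.88 and 5.78 CPM in the control libraries. DNAJC18 was at 10.3, 10.1 and 9.94 CPM in the OTUD1 siRNA libraries and 7.95, 8.43 and 7.59 CPM in the control libraries. Both rose, with no overlap, at log2 fold changes of 0.57 and 0.34.

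DNAJC24, an enzyme cofactor in the synthesis of diphthamide, was at 8.16, 9.83 and 7.94 CPM in the OTUD1 siRNA libraries and 13.7, 13.8 and 13.8 CPM in the control libraries and fell 1.59-fold. Some further genes of class C, named here after their values had been seen, were also lower. DNAJC16 had a log2 fold change of -0.62, DNAJC8, which associates with the spliceosome, -0.56, and the histone chaperone DNAJC9 -0.47, the last with 32.5% of its main transcript overlapped by other genes. DNAJC7, which binds both HSP70 and HSP90, was called lower at -0.30, with 34.0% of its main transcript overlapped by opposite-strand genes. DNAJC5, the cysteine string protein of exocytosis, was called lower at -0.19 but not with library totals (-0.059) or quantile normalization (-0.0659). DNAJC25 was called lower at -0.30 and lost the call without OTUD1 siRNA replicate 1 (-0.27), OTUD1 siRNA replicate 3 (-0.29), control siRNA replicate 2 (-0.23) or control siRNA replicate 3 (-0.27), with DESeq2 (-0.30), with library totals (-0.17) and with a minimum mean of 5 CPM (-0.26). The genes not called were DNAJC1, DNAJC2, DNAJC4, DNAJC6, DNAJC13, DNAJC14, DNAJC17, DNAJC21, DNAJC22 and DNAJC28.

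Per kb of the main transcript, HSP90AB1 stood highest with a mean of 900.1 CPM per kb after OTUD1 siRNA and 1123 CPM per kb in the control libraries. HSPB1 came next, at 662 CPM per kb after OTUD1 siRNA and 686 CPM per kb in the control libraries. HSPA8 followed, at 546 CPM per kb after OTUD1 siRNA and 612 CPM per kb in the control libraries. These 3 kept their order when all annotated exons were counted as the length. DNAJB6, which came 4th with its main transcript, came 18th after OTUD1 siRNA and 15th in the control libraries with all exons, so its place rests on the length chosen. HSP90 genes made up 20.9% ± 0.097 of the summed chaperone counts per kb after OTUD1 siRNA and 23.0% ± 0.115 in the control libraries. The small heat shock proteins made up 13.6% ± 0.53 after OTUD1 siRNA and 11.6% ± 0.284 in the control libraries (SD, n = 3 each). A share can rise without a rise in level, and HSPB1, the most abundant small heat shock protein mRNA, was not called. All 68 rows together held 1.33% to 1.35% of the counts of the OTUD1 siRNA libraries and 1.45% to 1.46% of those of the control libraries.

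**Figure D5:**
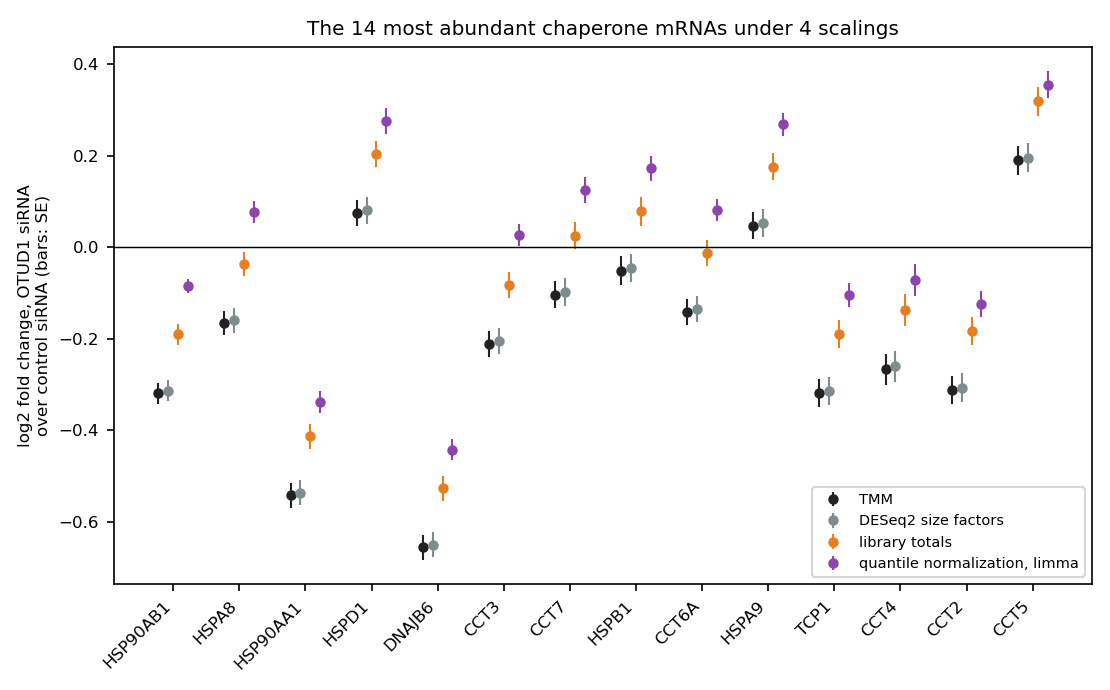
Log2 fold change, OTUD1 siRNA over control siRNA, with SE, of the 14 most abundant chaperone mRNAs under TMM, DESeq2 size factors, library totals and quantile normalization with limma. HSP90AB1, HSP90AA1, DNAJB6, TCP1, CCT2 and CCT4 stay below 0 under all 4 and CCT5, HSPD1 and HSPA9 above 0, while HSPA8, CCT3, CCT6A, CCT7 and HSPB1 cross 0.

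Other genes of the chaperone network, taken from 5 lists of partners and cofactors, were more often called lower than all genes tested. Of 66 rows tested from 67 symbols found, 32 (48.5%) fell and 19 (28.8%) rose with TMM, with a median of -0.12, where 31.1% of all genes tested were lower and 29.3% higher. With library totals 21 (31.8%) were lower and 27 (40.9%) higher, where 22.7% of all genes were lower and 40.6% higher. After quantile normalization 22 (33.3%) were lower and 24 (36.4%) higher, where 28.5% of all genes were lower and 31.1% higher.

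Of 19 HSP90 co-chaperone genes, 8 (42.1%) fell and 6 (31.6%) rose, where 31.1% of all genes tested were lower and 29.3% higher. The same shares of all genes stand beside the smaller lists that follow. STIP1, which hands substrates from HSP70 to HSP90, was at 264, 264 and 259 CPM in the OTUD1 siRNA libraries and 349, 339 and 356 CPM in the control libraries and fell 1.33-fold. PPID, the cyclophilin partner of HSP90, fell 1.41-fold. AHSA1, the activator of the HSP90 ATPase, was at 105, 108 and 109.5 CPM in the OTUD1 siRNA libraries and 85.7, 83.4 and 85.6 CPM in the control libraries and rose 1.27-fold. UNC45A, a chaperone of myosin, was at 123, 117 and 122 CPM in the OTUD1 siRNA libraries and 66.8, 55.9 and 62.8 CPM in the control libraries and rose 1.95-fold, the largest increase in the lists.

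Of 12 exchange factors and partners of HSP70, 5 (41.7%) fell and 5 (41.7%) rose. BAG5, a BAG-domain partner of HSP70, fell 1.46-fold, while ST13 rose 1.22-fold and SIL1, an exchange factor of the endoplasmic reticulum, 1.3-fold. Of 15 prefoldin, tubulin-folding and CCT cofactor rows, 8 (53.3%) fell and 2 (13.3%) rose. PFDN1, a subunit of prefoldin, which delivers actin and tubulin to CCT, was at 56.2, 53.1 and 52.3 CPM in the OTUD1 siRNA libraries and 107, 104 and 102 CPM in the control libraries and fell 1.93-fold. PDCL, a phosducin-like CCT cofactor, fell 1.8-fold. PFDN6 rose 1.14-fold and PFDN2 1.13-fold, PFDN2 with overlapping groups and without a call in DESeq2 (0.18) or when control siRNA replicate 3 was left out (0.13).

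Of 11 mitochondrial chaperone and protease genes, 6 (54.5%) fell and 2 (18.2%) rose. LONP1, the main protease of the mitochondrial matrix, was at 262, 268 and 262 CPM in the OTUD1 siRNA libraries and 176, 158 and 161 CPM in the control libraries and rose 1.6-fold. AFG3L2, of the inner membrane, rose 1.64-fold. TIMM44, which holds HSPA9 at the import channel, fell 1.31-fold, and YME1L1 fell 1.14-fold, though not with library totals (-0.0553) or quantile normalization (-0.0644). Among 9 tested genes of heat shock factors and further HSF1-linked genes, 5 (55.6%) fell and 4 (44.4%) rose. UBB, a polyubiquitin gene, fell 1.45-fold, while SERPINH1, the collagen chaperone HSP47, rose 1.31-fold and HSF4 1.38-fold. Of the 6 genes of the endoplasmic reticulum left out of the set, 2 fell, 1 rose and 3 did not pass, with a median of -0.087.

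Total counts were 17243433 to 21013530 in the OTUD1 siRNA libraries and 16753495 to 18993534 in the control libraries. OTUD1 itself had 28, 17 and 25 counts after OTUD1 siRNA, against 61, 67 and 65 counts in the control libraries, and fell 3.22-fold (log2 fold change -1.69, edgeR adjusted p = 4.37e-07). All 7 renal epithelial markers were detected, with a summed level of 3111 to 3223 CPM in the OTUD1 siRNA libraries and 6341 to 6542 CPM in the control libraries, most of it from KRT8 and KRT18. PAX8, PAX2, KRT8, KRT18 and LHX1 were called lower, EPCAM was called higher (0.14) and CDH16 was not called (-0.011). Of 5 leukocyte markers, PTPRC, CD3E and LYZ were at 0 in all libraries, and the sum was at most 0.0912 CPM after OTUD1 siRNA and 0.125 CPM in the control libraries. The 4 fibroblast markers summed to 11.9 to 14.5 CPM after OTUD1 siRNA and 7.6 to 10.2 CPM in the control libraries, and the 3 endothelial markers to 0.496 to 0.82 CPM after OTUD1 siRNA and, in the control libraries, to 0.188 to 0.934 CPM, where PECAM1 had counts in control siRNA replicate 3 only, 2 of them. The part of these shifts in the chaperone changes was not tested.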

How the data were processed

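The deposited table holds whole-number counts per gene made by the authors from RNA-seq of 6 libraries of ACHN cells, although its name speaks of FPKM. The genome build was hg38, per the submitters' processing notes, and libraries were made with a directional kit, per the labels' protocols. For the aligner, the counter, its annotation and its strand setting, the sources used here give nothing.

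Counts were tested with edgeR 4.0.16 in R 4.3.3 (TMM scaling, filterByExpr with a minimum count of 10, glmQLFit and glmQLFTest, Benjamini-Hochberg adjusted p under 0.05 over 15244 genes). The SE is the absolute log2 fold change divided by the square root of F. The biological coefficient of variation was 3.78%. Alternatives used limma 3.58.1, DESeq2 1.42.0, other scalings and filters, and each library left out. The fits were tested on simulated data. Within-library ratios were compared by two-sided exact permutation tests. Gene positions and lengths came from GENCODE 29, and promoters from RefSeq (GRCh38.p14), where a letter match is a description and not a binding site.

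Genes described singly were the main members of each class, whatever their values, the 10 called members with the largest increase and the 10 with the largest decrease without overlap of the groups, and up to 2 called genes per list of partners and direction, by the smallest adjusted p; some genes that this rule names are not reported here. Other members named beside them were chosen after their values were seen. The members and lists were chosen with earlier results of these data known.

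Libraries within a group differed by more than counting noise (chi-square per gene 2.05 to 3.72), so none was taken for a copy of another; this does not show that they came from separate cultures. Same-numbered libraries did not deviate together (correlations -0.0229, 0.0178 and -0.0182).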

Additional observations from a re-analysis of the deposited data

How the results depend on the processing

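The number of chaperone genes called higher, 10 with TMM scaling, was 18 with library totals and 18 after quantile normalization. Of all genes tested, 29.3% were called higher with TMM, 40.6% with library totals and 31.1% after quantile normalization. The median log2 fold change of the chaperone genes, -0.20 with TMM, was -0.157 with a minimum mean of 5 CPM, -0.069 with library totals and -0.126 after quantile normalization. It was -0.231 to -0.192 when each library was left out in turn. Less the median of all genes, it was -0.20 with TMM and with library totals. This difference was -0.16 with a minimum mean of 5 CPM and -0.14 after quantile normalization. Leaving out a library gave 35 to 39 chaperone genes lower and 9 to 10 higher. In these fits 28.7% to 29.6% of all genes were lower and 26.1% to 27.7% higher. Of the co-chaperone genes, 21 (31.8%) were lower with library totals, where 22.7% of all genes were lower. With TMM 32 (48.5%) were lower, where 31.1% of all genes were. Replicates share only a number, and with a replicate block 11 chaperone genes were higher and 40 lower, where 29.4% of all genes were higher and 31.4% lower.

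Single-gene alternatives were counted for the genes set for single description and for all called members. Of these 1135 alternatives, 1062 kept direction and call, 51 lost the call, 7 gained one and 15 changed sign. Other uncalled members were not counted. Among them, for example, DNAJC4 changed sign in 4 alternatives and DNAJB2 was called higher in 7. In the counted genes, sign changes after quantile normalization were HSPA8 (0.077), HSPA4 (0.052), HSPB1 (0.173), CCT3 (0.027), CCT6A (0.082), CCT7 (0.125), CCT8 (0.085) and CCT6B (-0.179). With library totals they were HSPA4 (0.025), HSPB1 (0.078), CCT7 (0.026) and CCT8 (0.066). CCT6B, which held few counts, was at 0.0909 with TMM and ranged from -0.209 to 0.7165 when each library was left out in turn, and was negative without OTUD1 siRNA replicate 1 (-0.209), control siRNA replicate 1 (-0.1396) or control siRNA replicate 3 (-0.1315). The cause was not tested. HSPA6, CCT6B and HSP90AA2P held few counts and changed call or sign when single libraries were left out. Reads shared with copies or overlapping genes limit HSPA1A, HSPA1B, HSPA14, HSPE1 and CCT5. Other genes also overlap the main transcripts of TCP1, CCT4, DNAJC7, DNAJC9, DNAJC11, DNAJC25, DNAJC30 and DNAJA4, among others.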
